A study of Arabidopsis thaliana with 16 samples.

Results

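Protoderm and guard cells mark the start and the end of the stomatal lineage, and their accessible chromatin was compared over all 65351 transposase hypersensitive sites (THSs) of the deposited table, in 6 of the 16 libraries of the series. The 3 protoderm libraries (Proto) and the 3 guard cell libraries (GC) were chosen by their labels, and no THS was left out. THSs that overlap the 3000 bp upstream of ATML1 and of GC1, 5 and 4 of them, were kept apart, because these promoters are carried a further time by the transgenes that tag the nuclei. The other 65342 THSs make up the comparison of the states.

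All plants were 3-day-old Col-0 seedlings grown in continuous light. Each line carried a nuclear tag under the promoter of a state, AtML1 for Proto and GC1 for GC, and in both lines ACT2pro::BirA expressed a biotin ligase, so that streptavidin beads could pull out the tagged nuclei (INTACT). ATAC-seq then recorded where the Tn5 transposase could cut, and each cut is a cutcount. Both lines were selected transgenic lines, so a property of a line and a property of its cell state cannot be told apart. AtML1 is also expressed modestly in cells of the stomatal lineage, which limits Proto as a model of protoderm alone, and whether the 3 replicates of a state came from separate plantings is not given in the sources used here, so p-values measure only the spread between these libraries.

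The protoderm is the outermost layer of the young shoot. Its identity rests on the homeodomain proteins ATML1 and PDF2, which bind the L1 box of epidermal genes. Guard cells form the pore of the stoma. They arise from protodermal cells through divisions and fate changes that the bHLH proteins SPCH, MUTE and FAMA drive in sequence with SCRM, and as mature cells they open and close the pore by moving potassium, chloride and malate across their membranes under the control of abscisic acid, CO2 and light.

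Cutcounts on THSs lay between 5794258 and 10180450 per library in Proto and between 5485785 and 8452825 in GC. On the log2 scale the libraries correlated across THSs with r between 0.930 and 0.955 within Proto, 0.922 and 0.944 within GC, and 0.893 and 0.959 between the states, as a description over THSs, which are not independent. Pairs from different states thus reached the same values as pairs within a state. Values are scaled cutcounts, the cutcounts after division by a single size factor per library, and fold changes are differences of log2(scaled cutcount + 1), GC minus Proto, which understate the change of THSs with few cutcounts.

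How many sites were called between protoderm and guard cell depended on the test and on single libraries. In the limma test with Benjamini-Hochberg adjustment over all THSs at a threshold of 0.05, 74 of the 65342 THSs outside the transgene promoters were higher in GC (0.113%) and 28 were higher in Proto (0.0429%), together 102 (0.156%). At an unadjusted p under 0.05 there were 5096 (7.8%) and 4366 (6.68%). The median log2 fold change over all THSs was 0.01, and 90% of THSs lay between the 5th percentile of -0.46 and the 95th of 0.57, while the median standard error was 0.22. The smallest change among called THSs was 0.78 in size. Of the 102 called, 99 showed no overlap between the 3 Proto and the 3 GC libraries, 71 of the 74 and 28 of the 28. Such a separation was found in 10.4% of all THSs with GC higher and in 8.53% with Proto higher. Other fits moved the counts and, in part, the state with more calls, with 63 higher in GC and 461 higher in Proto in DESeq2, 63 and 2041 under scaling by listed reads, and 286 and 239 with a replicate block. DESeq2 gave no adjusted p for a part of the THSs, which could not be called there. Without GC replicate 1 there were 2 higher in GC and 0 higher in Proto (2917 and 2650 at an unadjusted p under 0.05), and without Proto replicate 2 there were 6 and 0 (3709 and 2748). Without GC replicate 2 there were 32 and 14. The counts rose to 143 and 121 without Proto replicate 1, to 174 and 51 without Proto replicate 3 and to 217 and 189 without GC replicate 3. With all 16 libraries in the fit 0 were called in either direction (limma, 1349 and 1062 at an unadjusted p under 0.05).

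The greatest change in each direction lay in a promoter that a transgene carries. The printed 300 bases hold the part of the GC1 promoter next to the gene start, with TAAAG words on either strand, bound by DOF proteins in guard cells, in capitals, and the centre of the most accessible ATML1 promoter THS, with AATNATT words of homeodomain proteins on either strand in capitals. Both are given 5′ to 3′ on the plus strand of TAIR10.1, which is the strand of both genes, at chr1:8026826-8027125 and chr4:11553414-11553713.
GC1 promoter: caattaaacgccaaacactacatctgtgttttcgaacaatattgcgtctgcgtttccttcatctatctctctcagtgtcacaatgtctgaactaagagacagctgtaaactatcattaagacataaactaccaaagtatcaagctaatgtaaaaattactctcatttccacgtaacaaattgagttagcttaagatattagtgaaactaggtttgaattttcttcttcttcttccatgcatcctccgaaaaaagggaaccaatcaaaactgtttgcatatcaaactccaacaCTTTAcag
ATML1 promoter: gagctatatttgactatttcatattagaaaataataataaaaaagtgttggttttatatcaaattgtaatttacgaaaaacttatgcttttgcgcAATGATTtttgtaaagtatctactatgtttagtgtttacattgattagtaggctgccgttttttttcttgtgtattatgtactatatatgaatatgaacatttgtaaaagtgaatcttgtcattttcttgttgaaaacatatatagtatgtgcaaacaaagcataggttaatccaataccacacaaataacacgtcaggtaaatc
The GC1 stretch held 1 TAAAG word and the ATML1 stretch 1 AATNATT word. In the central 150 bp of all THSs, a shorter window than these stretches, TAAAG was found in 38.7% and AATNATT in 15.4%. Over whole THSs, with a median length of 230 bp, the shares were 54.3% and 25.2%.

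THS_45044 (chromosome 4, 11553127 to 11554001, intergenic, midpoint at -1476 bp from the ATML1 start) had 1510, 1470 and 1285 scaled cutcounts in Proto and 367, 365 and 381 in GC. ATML1 encodes a master regulator of epidermal identity. The 3 Proto libraries lay far above the 3 GC libraries, and the log2 fold change was -1.93 ± 0.19 (SE; limma, adjusted p = 1.09e-09). THS_45046, which spans the ATML1 start, had 858, 814 and 677 in Proto against 226, 247 and 261 in GC, with a log2 fold change of -1.67. THS_45043 had 351, 336 and 282 against 112, 117 and 86.7 (-1.61). Neither overlapped between states. THS_45045 was weaker, with 127, 63.6 and 57.3 against 38.4, 48.0 and 24.5, a log2 fold change of -1.10 and an adjusted p of 0.0393 (limma). The fifth THS of the window, THS_45042, with its midpoint at -2679 bp, overlapped between the states, with 232, 174 and 228 against 186, 109 and 166 (-0.49, limma adjusted p = 0.226). Beyond the window no THS shown of the ATML1 locus was called. THS_45047, 1547 bp inside the gene, and THS_45048, in a coding exon at 4969 bp, had log2 fold changes of -0.40 ± 0.28 and 0.34 ± 0.18 (SE) and were not called.

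The GC1 promoter showed the reverse. GC1 encodes a small gibberellin-regulated-family protein and its promoter is a standard driver for guard cells. THS_05424 (chromosome 1, 8026801 to 8027326), which spans the GC1 start, had 78.4, 82.8 and 97.6 scaled cutcounts in Proto and 431, 354 and 354 in GC. All GC libraries were above all Proto libraries, and the log2 fold change was 2.13 ± 0.18 (SE; limma, adjusted p = 1.19e-11), the greatest of any THS in the table. THS_05423, centred at -631 bp from the start, had 92.7, 109 and 108 against 357, 336 and 347, a log2 fold change of 1.74. THS_05422, centred at -950 bp, had 44.8, 36.8 and 34.5 against 62.8, 50.3 and 85.9 (0.74, limma adjusted p = 0.123) and was not called, although its libraries did not overlap. THS_05421, centred at -1680 bp, had 43.8, 17.6 and 20.2 against 24.4, 23.4 and 29.1 (0.03). Cutcounts on these 9 THSs enter none of the gene lists, since those of the endogenous promoter and of the transgene copy cannot be told apart.

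**Figure D1:**
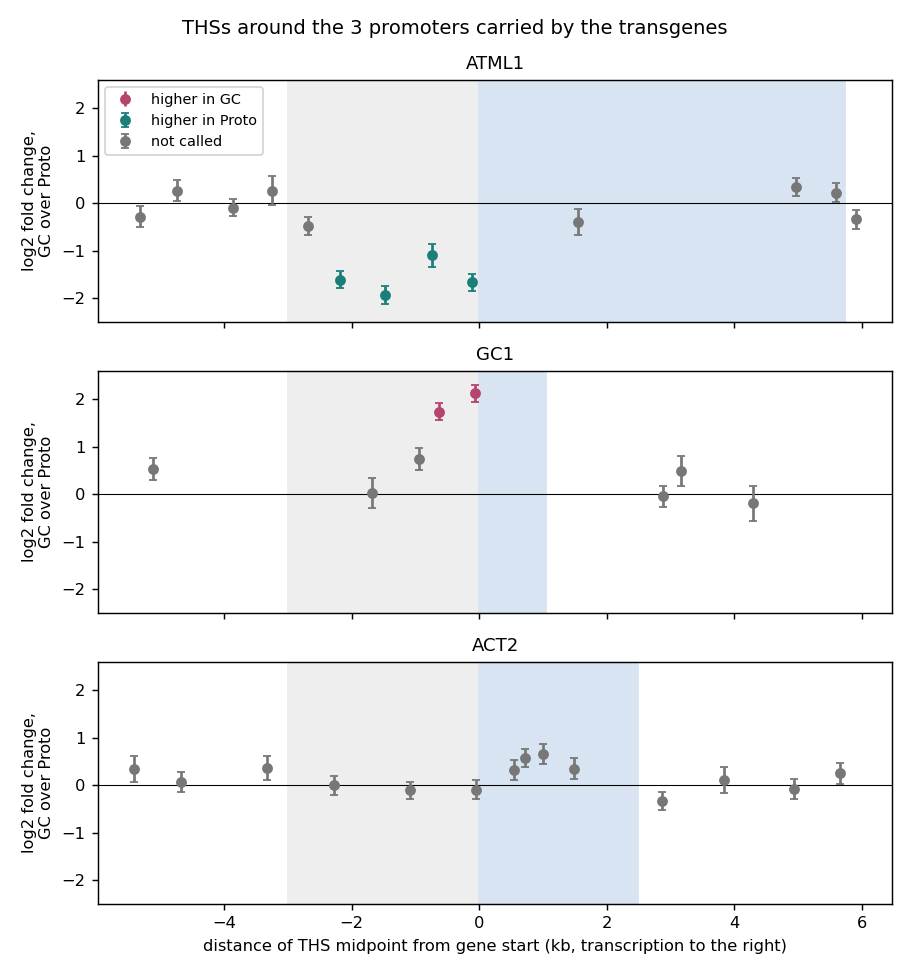
Log2 fold change of GC over Proto (vertical axis, bars give the standard error) of the THSs around the starts of ATML1, GC1 and ACT2, by distance from the gene start in kb. Grey marks the 3000 bp upstream and blue the gene. Called THSs (coloured) form a block of 4 in the ATML1 promoter, lowest at -1.93, and a pair in the GC1 promoter, highest at 2.13, and none was called at ACT2.

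The promoter and the tag that both lines share allow a comparison. ACT2 encodes an actin, and its promoter drives the biotin ligase in both lines. Its 3 upstream THSs had log2 fold changes between -0.11 and -0.01 and were not called. THS_32375, which spans the ACT2 start, had 542, 933 and 910 scaled cutcounts in Proto and 752, 648 and 769 in GC. The nuclear tag itself carries the WPP domain, which targets the nuclear envelope, and RANGAP1 is a protein that holds such a domain at its N-terminus. THS_40397 (chromosome 3, 23325088 to 23325462) covers codons 1 to 119 of the 535 of RANGAP1. It had 181, 152 and 195 scaled cutcounts in Proto and 390, 354 and 347 in GC. The states did not overlap, the log2 fold change was 1.05 ± 0.18 (SE) and the adjusted p 0.00160 (limma). Its G+C content was 48.3%, and the call was lost after G+C correction (0.72, limma adjusted p = 0.0559), without Proto replicate 2 (0.168) and without GC replicate 1 (0.173). The other RANGAP1 THS, THS_40396 at its start, had 150, 267 and 259 in Proto and 173, 184 and 199 in GC (-0.24, limma adjusted p = 0.605). The RANGAP1 THSs were singled out after their values were seen. Both lines carry the tag, the gene its WPP domain came from is not given in the sources used here, and the part of the tag in this difference was not tested.

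Outside the transgene promoters the THSs higher in GC fell into groups by how unique their sequence is. A THS was called single copy where none of its words of 31 letters occurs again in the nuclear genome or stands in the plastid or mitochondrial genome. Of the 74 THSs, 12 lay in the 45S ribosomal DNA at the start of chromosome 2, 2 more shared at least 10% of their words with it, 8 shared words with an organelle genome, 24 shared words elsewhere in the nuclear genome and 28 were single copy. The ribosomal DNA was taken as bases 1 to 9945, the annotated rRNA genes with up to 4000 bp on each side. THSs that overlap this window were counted in it. Of all 65342 THSs, 60206 were single copy. How the authors' mapping placed reads from repeated sequence is not given in the sources used here.

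The ribosomal DNA array rose as a block. The array holds the tandem genes for the large ribosomal RNAs, most of which are missing from the assembled genome, so that reads from many copies can fall on the copy that is present. All 12 of its THSs, numbered THS_17802 to THS_17813, were called higher in GC, with log2 fold changes from 1.19 to 1.77 and a median of 1.40. THS_17803 (chromosome 2, 1797 to 1996, in the annotated gene AT2G01008) had 2866, 2434 and 3092 scaled cutcounts in Proto and 10672, 10117 and 7892 in GC. Every GC library stood above every Proto library (1.77 ± 0.22 SE, limma adjusted p = 1.67e-06). Of each library's scaled cutcounts the array took 2.48%, 2.27% and 2.48% in Proto and 6.45%, 6.28% and 5.12% in GC. These THSs share one source of DNA and are not independent of each other, nor of THS_52315 (chromosome 5, in the F-box gene AT5G10340) and THS_19475 (chromosome 2), which share words with the array. THS_52315 had 3019, 3564 and 3832 in Proto and 12327, 10728 and 9045 in GC (1.62). Of the 10 named THSs higher in GC, 7 lay in the array.

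THSs that share words with an organelle genome moved in part. There were 78 of them, with a median log2 fold change of 0.64, of which 8 were called higher in GC and 0 higher in Proto. Their share of scaled cutcounts was 5.83%, 6.55% and 8.77% in Proto and 13.5%, 12.4% and 8.77% in GC, so that Proto replicate 3 and GC replicate 3 were alike. A single THS, THS_32766, was not called. It alone took 2.66%, 2.84% and 3.94% of all scaled cutcounts in Proto and 5.93%, 5.98% and 4.11% in GC. Of the 74 THSs, the 3 whose libraries overlapped between the states, THS_36362, THS_07811 and THS_07425, were all of this kind.

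The 28 single-copy THSs higher in GC lay for the most part in coding exons. Their midpoints were in a coding exon in 22 of 28 (78.6%, 95% Wilson interval 60.5% to 89.8%, which covers counting error only), against 15.8% of all THSs. They were rich in G and C, with a median G+C content of 50.6%, against 34.7% over all THSs. THS_32449 (chromosome 3, 6559833 to 6559991), in a coding exon of the leucine-rich repeat gene AT3G19020, had 22.4, 11.5 and 33.8 scaled cutcounts in Proto and 57.2, 65.5 and 72.9 in GC. The states did not overlap, and the log2 fold change was 1.60 ± 0.27 (SE; limma, adjusted p = 0.00118). Of other single-copy THSs, chosen after their values were seen, the coding exon of GRP7, a clock-controlled glycine-rich RNA-binding protein, held THS_20707 with a log2 fold change of 0.97, the glycine-rich gene DOT1 held THS_24710 (1.15) and IKU1, a VQ motif protein of endosperm growth, held THS_24448 (0.80). Genes whose product is named glycine-rich, a group picked after the calls were seen, held 4 of the 74 called THSs (5.41%) and 61 of all 65342 (0.0934%). The median log2 fold change of the 61 was 0.28. Of the 4, THS_18840 was not single copy, and none was still called after G+C correction. THS_56632, among the 10 named but in a pseudogene on chromosome 5 whose words recur, had 18.3, 13.0 and 24.7 in Proto against 66.5, 56.1 and 33.7 in GC (1.42).

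The 28 THSs higher in Proto were of another kind. Of these, 25 were single copy, 16 were intergenic (57.1%, 95% Wilson interval 39.1% to 73.5%), 9 lay within 400 bp upstream of a protein-coding gene (32.1%, interval 17.9% to 50.7%) and 0 of 28 lay in a coding exon (interval up to 12.1%). Their G+C content ran from 26.0% to 37.6% with a median of 31.7%. They had a median of 206 scaled cutcounts in Proto and 113 in GC, against 52.5 and 55.4 over all THSs. Cutcounts were not divided by length, and their median length was 346 bp against 230 bp over all. THSs with more cutcounts also reach a call more easily, so this level is no trait of the set. Called changes outside the transgene promoters did not exceed 1.01 in this direction. The sequences show the contrast with the THSs higher in GC, with G and C in capitals. The first pair were higher in Proto (chr5:16571342-16571531 and chr2:504707-504985), the last 3 higher in GC (chr3:6559833-6559991, chr5:1609682-1609871 and the middle 300 bases in the coding exon of PDF1, chr2:17826876-17827175), all on the plus strand of TAIR10.1.
THS_58011: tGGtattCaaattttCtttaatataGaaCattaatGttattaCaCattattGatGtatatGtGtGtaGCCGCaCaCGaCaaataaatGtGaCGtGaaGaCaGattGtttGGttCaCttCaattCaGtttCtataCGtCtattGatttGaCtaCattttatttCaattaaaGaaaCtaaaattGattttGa
THS_18158: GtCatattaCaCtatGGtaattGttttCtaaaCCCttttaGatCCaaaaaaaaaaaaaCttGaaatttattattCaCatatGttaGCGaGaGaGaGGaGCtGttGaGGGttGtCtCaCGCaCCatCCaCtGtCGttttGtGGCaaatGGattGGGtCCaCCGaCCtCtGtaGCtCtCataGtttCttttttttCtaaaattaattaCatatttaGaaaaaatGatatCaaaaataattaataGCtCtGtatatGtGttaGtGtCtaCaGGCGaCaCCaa
THS_32449: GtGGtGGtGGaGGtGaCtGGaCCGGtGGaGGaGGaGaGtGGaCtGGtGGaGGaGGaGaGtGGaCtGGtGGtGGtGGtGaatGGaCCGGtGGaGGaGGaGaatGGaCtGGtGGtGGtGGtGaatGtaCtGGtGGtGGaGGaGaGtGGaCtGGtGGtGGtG
THS_51307: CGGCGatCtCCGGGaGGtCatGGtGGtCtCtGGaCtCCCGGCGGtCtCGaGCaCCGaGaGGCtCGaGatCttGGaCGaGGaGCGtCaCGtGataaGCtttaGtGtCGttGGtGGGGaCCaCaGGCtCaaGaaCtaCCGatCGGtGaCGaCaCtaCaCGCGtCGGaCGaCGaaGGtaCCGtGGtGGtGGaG
THS_26674: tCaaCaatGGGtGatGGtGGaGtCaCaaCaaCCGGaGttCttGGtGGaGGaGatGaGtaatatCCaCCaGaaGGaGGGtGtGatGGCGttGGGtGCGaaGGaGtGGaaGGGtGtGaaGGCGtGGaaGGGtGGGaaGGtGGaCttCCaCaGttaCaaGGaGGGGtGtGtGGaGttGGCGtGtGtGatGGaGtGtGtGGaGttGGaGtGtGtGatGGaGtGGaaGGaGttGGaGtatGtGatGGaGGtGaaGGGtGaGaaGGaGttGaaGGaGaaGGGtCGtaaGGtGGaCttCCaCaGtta
The stretches hold 27.4% and 33.7% G+C in the pair higher in Proto and 61.0%, 61.1% and 53.0% in those higher in GC.

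THS_58011, an intergenic THS of chromosome 5, had 89.6, 96.5 and 91.8 scaled cutcounts in Proto and 47.8, 45.6 and 47.6 in GC. Replicates were close and the states far apart (-0.96 ± 0.20 SE, limma adjusted p = 0.0195). THS_18158 lay at -530 bp from the start of IDD5, which encodes an INDETERMINATE-domain zinc finger protein. It had 166, 180 and 152 in Proto and 77.8, 110 and 77.5 in GC (-0.92 ± 0.19 SE, limma adjusted p = 0.0180). THS_23493 lay at -898 bp from the start of LSH3, a gene of the ALOG family that is expressed at organ boundaries. It had 226, 239 and 193 in Proto and 99.3, 130 and 128 in GC (-0.88). In both, all Proto libraries exceeded all GC libraries.

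THS_07553 lay in an intron of the copper amine oxidase gene AT1G31710, with 267, 275 and 237 in Proto and 131, 139 and 139 in GC (-0.92 ± 0.18 SE, limma adjusted p = 0.00977). It was the 1 of the 28 that passed a stricter adjusted p of 0.01. THS_59908 had the largest change of the 28, with 59.1, 53.6 and 66.4 in Proto and 31.9, 26.9 and 28.4 in GC (-1.01). It lay at -519 bp from the start of AT5G47940, annotated as a ribosomal protein gene. The nearest gene to THS_35006 was CSLC04, a xyloglucan glucan synthase, with the THS at -3494 bp from its start and a log2 fold change of -0.92. Of the other 4 named, THS_37024 (nearest PGL2), THS_43231, THS_57188 and THS_57147, log2 fold changes lay between -0.97 and -0.91 and no libraries overlapped. Further THSs of this direction, chosen after their values were seen, lay upstream of VSP2, a jasmonate-induced storage protein (THS_55629, -0.86), CYP706A1, a cytochrome P450 (THS_45346, -0.85) and UNE1 (THS_06878, -0.88).

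**Figure D2:**
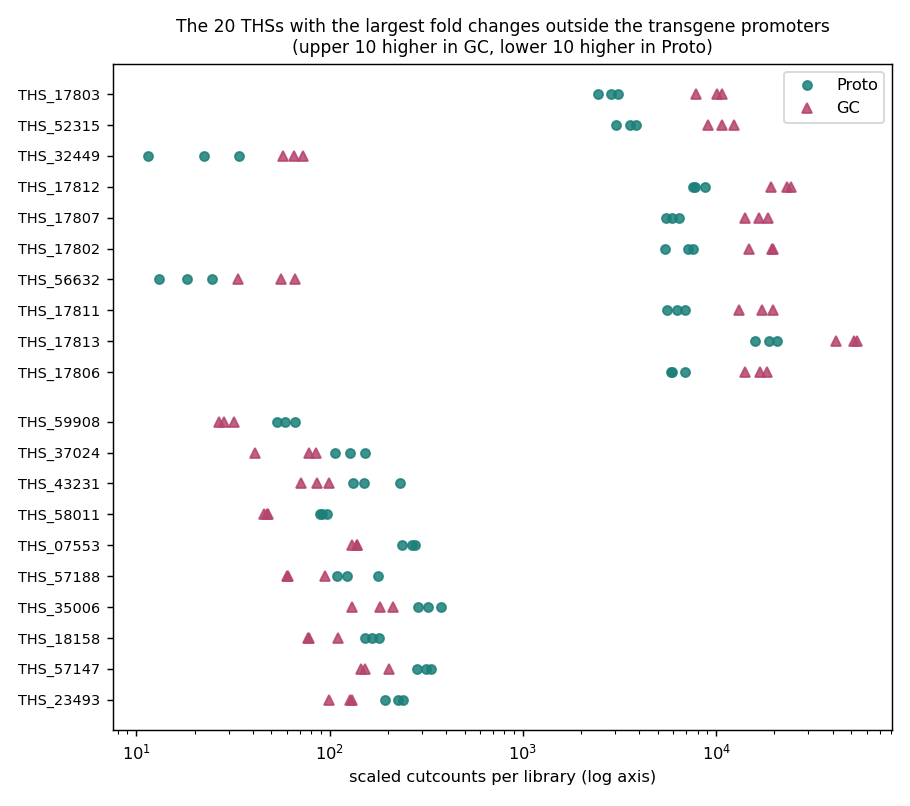
Scaled cutcounts of each library (log axis) for the 20 named THSs, with circles for the 3 Proto and triangles for the 3 GC libraries. The upper 10 were higher in GC and include 7 THSs of the ribosomal DNA, and the lower 10 were higher in Proto, with changes of up to 1.01 on the log2 scale, and no THS shows overlap between states.

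**Figure D3:**
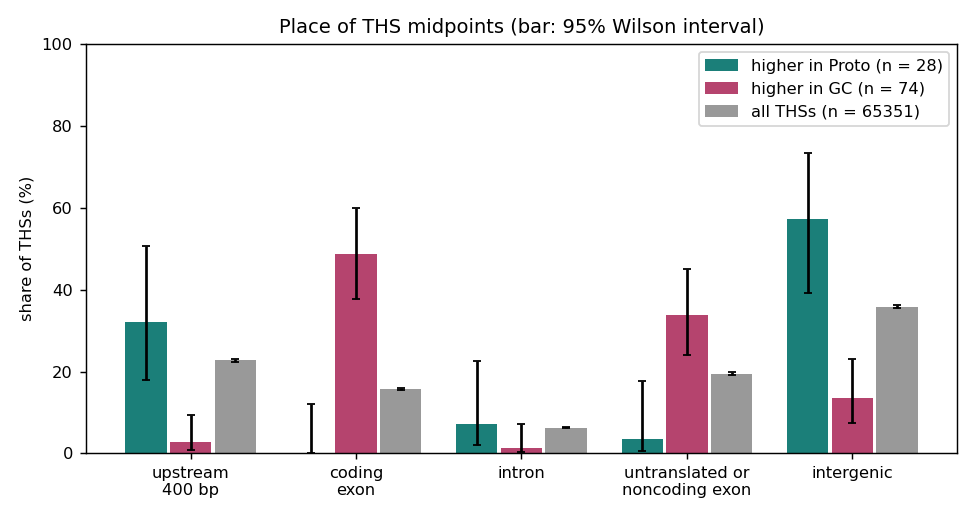
Share of THS midpoints (percent, bars give the 95% Wilson interval) by place for the 28 THSs higher in Proto, the 74 higher in GC and all 65351. Coding exons held 48.6% of those higher in GC, 15.8% of all THSs and 0 of those higher in Proto, and intergenic sequence held 57.1% of those higher in Proto.

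The difference between the states followed G+C content over the whole table. Outside the transgene promoters and the ribosomal DNA, the median log2 fold change was -0.08 in the 1354 THSs with under 25% G+C, -0.06 in the 23110 with 30 to 35%, 0.15 in the 8713 with 40 to 45% and 0.54 in the 330 with 55% or more. Medians below 40% G+C leaned to Proto and those from 40% up leaned to GC. The level of THSs with at least 45% G+C (6154) relative to those under 30% (10599) was taken in each library as the difference of the median log2 values. It was 0.23, 0.39 and 0.79 in Proto and 1.06, 0.69 and 0.92 in GC. Proto replicate 3 lay above GC replicate 2, so the states overlapped, and the means of 0.47 ± 0.29 and 0.89 ± 0.19 (SD, n = 3 each) differed by 0.42, with p = 0.2 in a two-sided exact permutation test, in which the smallest p this design allows is 0.1. THSs in coding exons, with a median G+C content of 44.7%, had a median log2 fold change of 0.31, against -0.09 in the 400 bp upstream of genes. After each library was corrected for the G+C content of its THSs, 16 THSs were higher in GC and 7 higher in Proto, of which 15 and 6 were among the 74 and the 28. The 15 were 11 of the 12 ribosomal DNA THSs and 4 others that share words, and none was single copy. The 6 included THS_58011, THS_07553, THS_23493, THS_57147 and THS_35006. Of the transgene promoters, 2 of 4 at GC1 and 3 of 5 at ATML1 were still called.

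**Figure D4:**
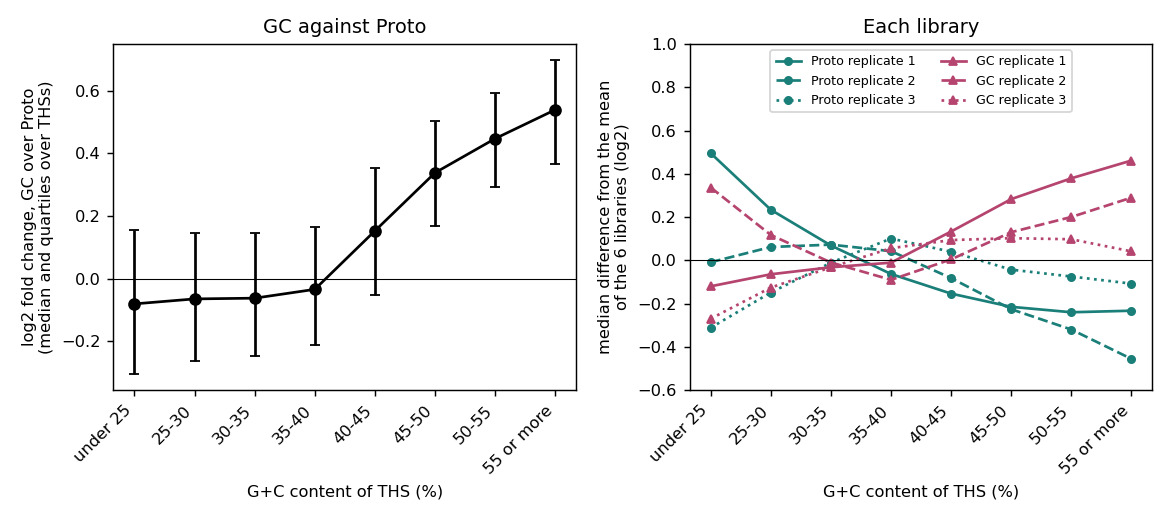
Left, median and quartiles over THSs of the log2 fold change of GC over Proto by G+C content of the THS (percent), rising from -0.08 under 25% to 0.54 at 55% or more. Right, for each library the median difference from the mean of the 6 libraries (log2) in the same classes, with circles for Proto and triangles for GC. From 45% up, Proto replicates 1 and 2 are lowest, GC replicates 1 and 2 highest and both replicates 3 lie between them. Under 25%, Proto replicate 3 (-0.31) and GC replicate 3 (-0.27) are lowest. Proto replicate 1 (0.50) and GC replicate 2 (0.34) are highest there.

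The labels were checked against genes that define the cells. For each gene, the THS with the most scaled cutcounts from 1000 bp upstream to the gene end was taken. Of 12 guard cell markers, 8 had a THS in that window and 0 were called, which against 0.156% called over all THSs says nothing about the markers. KAT2, SLAC1, HT1 and TGG1 had none there. FAMA, the bHLH protein of guard cell differentiation, had 380, 323 and 321 scaled cutcounts in Proto and 415, 398 and 337 in GC at THS_33854 (0.17 ± 0.19 SE, limma adjusted p = 0.721). The libraries overlapped. MYB60, a transcription factor of guard cells, had 116, 133 and 157 in Proto and 108, 149 and 129 in GC (-0.08). KAT1, an inward potassium channel, had 117, 117 and 130 against 121, 159 and 131 (0.17), and GORK, the outward potassium channel, had 110, 139 and 123 against 84.3, 99.4 and 102 (-0.37, limma adjusted p = 0.345). Of these chosen THSs only that of GORK showed no overlap, and it was lower in GC. Outside the transgene promoters 8.53% of THSs were higher in Proto without overlap. OST1, the kinase of abscisic acid signalling, had a log2 fold change of 0.12, SCAP1, a DOF protein of guard cell maturation, 0.07, EPF1, a peptide that spaces stomata, -0.35 and MPK12, a guard cell kinase, 0.66 (limma adjusted p = 0.243). Further THSs of KAT1 (THS_59430, 0.49) and OST1 (THS_48277, 0.64) were higher in GC without overlap and were not called. No further THS of these markers was lower in GC at an unadjusted p under 0.05 (limma). In bulk nuclei, fewer cells of a type and less accessibility per cell cannot be told apart.

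Among 11 protoderm markers, 10 had a THS in the window and 1 was called. PDF1, a proline-rich protein of the outermost layer and a classic target of the L1 box, was called at THS_26674 (chromosome 2, 17826839 to 17827213), over codons 44 to 168 of its 306, and against its label it was higher in GC. It had 54.0, 58.2 and 86.6 scaled cutcounts in Proto and 170, 140 and 119 in GC, without overlap (1.11 ± 0.20 SE, limma adjusted p = 0.00246). Its G+C content was 53.3%, and 0.580% of its words recur. The call was lost after G+C correction (0.67, limma adjusted p = 0.144), without Proto replicate 2 (0.104) and without GC replicate 1 (0.242). HDG2, a homeodomain protein that promotes stomatal fate, had 144, 92.7 and 93.7 in Proto against 65.6, 79.5 and 95.1 in GC (-0.44). HDG12 had 60.1, 53.6 and 64.4 against 109, 66.7 and 99.7, without overlap (0.59, limma adjusted p = 0.169). ACR4, a receptor kinase of the epidermis, had a log2 fold change of 0.01, HDG11 -0.03, ANL2 0.08 and HDG1 0.17. CER5, which exports wax, had 286, 331 and 252 against 176, 161 and 211, no overlap, and a log2 fold change of -0.66 that was not called (limma adjusted p = 0.0899). FDH and CER6, enzymes of long-chain lipids, had -0.19 and -0.06. Further THSs of ANL2 (THS_40665, -0.55) and FDH (THS_22004, -0.54) were higher in Proto without overlap and were not called. No further THS of these markers was higher in GC at an unadjusted p under 0.05 (limma). PDF2 had no THS in the window. Apart from ATML1, whose promoter the transgene also carries, none of these markers was called higher in Proto.

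**Figure D5:**
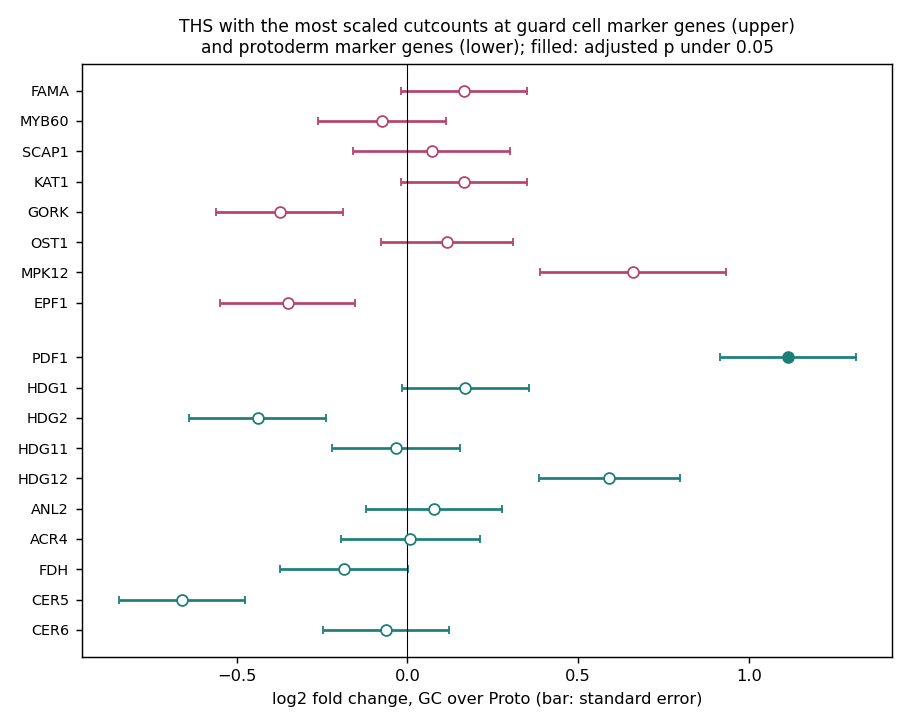
Log2 fold change of GC over Proto (horizontal axis, bars give the standard error) of the most accessible THS of each marker gene, for 8 guard cell markers (upper) and 10 protoderm markers (lower). All guard cell markers lie between -0.37 and 0.66 and were not called, and the called one (filled) is PDF1 at 1.11.

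Over 14 lists with 666 distinct THSs, 2 were called higher in GC (PYL5 and PDF1) and 0 higher in Proto, with 61 and 41 at an unadjusted p under 0.05 in limma. edgeR also called 2 and 0 and DESeq2 0 and 6. DESeq2 gave no adjusted p for the called THSs of PYL5 and PDF1, so these calls were not retested there. Together 15.3% of list THSs had an unadjusted p under 0.05, against 14.5% of all THSs outside the transgene promoters, and their median log2 fold change was 0.02 against 0.01. THS_51307, in a coding exon of PYL5, an abscisic acid receptor, had 25.5, 28.4 and 48.8 scaled cutcounts in Proto and 95.6, 70.2 and 50.6 in GC (1.07 ± 0.24 SE, limma adjusted p = 0.0415), chosen after its values were seen. The libraries did not overlap, but GC replicate 3 was close to Proto replicate 3. The call was lost after G+C correction (0.46, limma adjusted p = 0.417) and without any one of Proto replicates 1 and 2 and GC replicates 1 and 2 (limma adjusted p from 0.0741 to 0.465).

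Ion transport in guard cells was described by 75 THSs of 18 genes, with a median log2 fold change of 0.03 and 0 called, against 0.156% called over all THSs. At an unadjusted p under 0.05 there were 5 higher in GC and 7 higher in Proto, 16% of them, against 14.5% of all. In it NHX1, a vacuolar sodium and potassium antiporter, came nearest, with 417, 463 and 486 in Proto and 249, 194 and 372 in GC at THS_56249 (-0.79, limma adjusted p = 0.0619). ALMT9, a vacuolar malate and chloride channel, had -0.63 and SLAH3, an anion channel, -0.47, neither of them called. AHA5, a proton pump, had 0.63 with overlap between the states and was not called. KC1 (THS_47985, 0.67) and STP1 (THS_02505, 0.65) were higher in GC without overlap and were not called either. DESeq2 called 2 THSs of this list, 2 of guard cell signalling and 2 of cuticle and wax higher in Proto. Guard cell identity and maturation (29 THSs) had a median of 0.07, guard cell signalling (69 THSs) -0.05 and the abscisic acid pathway (105 THSs) -0.03. The protoderm list (58 THSs) had 0.07 and cuticle and wax (85 THSs) 0.0049.

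Early stomatal lineage genes (42 THSs) had a median of -0.04 with 0 called. BASL, the polarity protein of asymmetric divisions, had 162, 161 and 154 in Proto and 103, 116 and 113 in GC upstream of its start (-0.52, limma adjusted p = 0.170), and no libraries overlapped. Cell cycle genes (63 THSs) had a median of 0.14, mesophyll and photosynthesis (46 THSs) -0.03, vascular tissue (29 THSs) 0.08, root (16 THSs) 0.11, trichome and root hair (29 THSs) -0.14, shoot meristem (8 THSs) -0.05 and the constitutive genes (13 THSs) 0.29. In each of these lists 0 THSs were called by limma, edgeR or DESeq2. Photosynthesis genes were accessible in both states, and their THSs went both ways, as did THSs over the whole table. Of the 46, 6 were higher in GC and 4 higher in Proto at an unadjusted p under 0.05 (limma), together 21.7%. Outside the transgene promoters 7.8% and 6.68% of THSs were, together 14.5%. In shoot meristem 3 and 2 of 8 THSs were, in a list with THSs at 3 genes. Upstream of LHCB1.3, a light-harvesting protein, THS_06990 had 377, 435 and 501 scaled cutcounts in Proto and 285, 282 and 374 in GC (-0.48), while in a coding exon of RCA, Rubisco activase, THS_25767 had 95.8, 112 and 135 against 202, 147 and 143 (0.52). The part of photosynthetic cells in the marker results was not tested.

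Words of known factors were counted on both strands over the whole of each THS, whose median length was 346 bp in those higher in Proto, 243.5 bp in those higher in GC and 230 bp over all. AATNATT, a core of homeodomain sites, was in 14 of the 28 THSs higher in Proto (50%, 95% Wilson interval 32.6% to 67.4%) and in 3 of the 74 higher in GC (4.05%, 1.39% to 11.3%), against 25.2% of all THSs. In the central 150 bp, where length does not enter, it was in 7 (25%) and 2 (2.70%), against 15.4% of all. No test of these shares was made.

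TAAAG, the word of DOF proteins, was in 17 of 28 (60.7%) and 28 of 74 (37.8%), against 54.3% of all, and in the central 150 bp in 11 (39.3%) and 14 (18.9%), against 38.7%. The E-box CANNTG was in 23 (82.1%) and 47 (63.5%), against 61.3% of all, and in the central 150 bp in 16 (57.1%) and 35 (47.3%), against 46.1%. The L1 box, as TAAATGTA or TAAATGCA, was in 1 of the 28 and 0 of the 74, against 2.47% of all THSs for the first form and 1.73% for the other. GAGAGAGA was in 1 and 2, against 7.55% of all. By the central 150 bp, THSs with AATNATT had a median log2 fold change of -0.06 and those without of 0.02, and their median G+C contents were 32.0% and 35.3%. The part of G+C content and length in these counts was not tested.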

How the data were processed

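ATAC-seq libraries of INTACT nuclei were taken by their labels, 3 of Proto and 3 of GC. According to the study's methods and notes, the authors demultiplexed with bcl2fastq, aligned to TAIR10 with Bowtie2, left out reads of centromeres, used MACS2 for peaks, joined these to published open sites of other Arabidopsis samples as one list of THSs, so that a THS need not be a peak of these libraries, and counted cuts there. The deposited signal values are these cutcounts divided by the authors by 1 DESeq2 size factor per library. In each library 100% of values fell on multiples of the value of 1 cut (tolerance 0.01), so whole cutcounts were recovered. A further value column (1) matched no library and was not used.

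Log2(scaled cutcount + 1) was fitted with limma 3.58.1 in R 4.3.3 (lmFit, eBayes with trend and robust), without filter, as GC minus Proto over 6 libraries, with Benjamini-Hochberg adjustment over 65351 THSs. Counts were retested with edgeR 4.0.16 and DESeq2 1.42.0. DESeq2 gave no adjusted p for a part of the THSs, which could not be called there. The tests were also run on simulated data, drawn as independent counts without a trend over G+C content. Such data cannot speak to how the counts of calls changed between fits. Chromosome lengths of TAIR10.1 hold every THS, so RefSeq genes and sequence of that assembly were used, with starts 1-based. A THS belongs to the 400 bp upstream of a protein-coding gene, a coding exon, an untranslated or noncoding exon, an intron or intergenic sequence by its midpoint. The members and gene lists were chosen with earlier results of these data known.

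Named THSs are, in each direction, the 10 with the largest log2 fold change among those called, outside the transgene promoters, with a mean of at least 50 scaled cutcounts in the higher state and no overlap of libraries. The THSs of ATML1 and GC1 and, per listed gene, the THS with the most scaled cutcounts were added. Python 3.11.15, numpy 2.4.6, pandas 2.3.3, scipy 1.17.1, matplotlib 3.10.9 and the R package data.table (version 1.17.8) served the remainder. Alternatives were other scalings, pseudocounts of 5 and 0.5, a mean of at least 20, all 16 libraries, plain limma, a replicate block, G+C correction, reads in peaks as covariate, a threshold of 0.01, leaving out libraries, other gene links, annotation order and word windows. Counting only THSs with no shared words was added after seeing the data.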

Additional observations from a re-analysis of the deposited data

How the results depend on the processing

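The ATML1 and GC1 promoter calls were stable, with 3 to 5 of 5 and 2 of 4 THSs called under every alternative run, and without single libraries 3 to 4 and 2. The other calls were not. Calls outside the transgene promoters, higher in GC and higher in Proto, were 63 and 2041 under scaling by listed reads (which moved the median of all THSs to -0.22), 189 and 38 under cyclic loess, 0 and 0 with all 16 libraries, 8 and 0 in limma without trend and robust (5277 and 2834 at an unadjusted p under 0.05), 286 and 239 with a replicate block, 26 and 70 with a replicate block and G+C correction, 16 and 7 with G+C correction, 228 and 178 with reads in peaks as covariate, 63 and 461 with DESeq2, and 22 and 1 at an adjusted p of 0.01. Counting only THSs with no shared words (added after seeing the data) left 28 and 25. That is a part of the main calls without a new fit or adjustment, and no check of them. Leaving out 1 library gave 2 to 217 and 0 to 189. The count at 0 had 1349 and 1062 at an unadjusted p under 0.05 with all 16 libraries. Of the 20 named THSs, 12 were called under cyclic loess, 0 with all 16 libraries, 6 without trend and robust, 13 with G+C correction, 12 with DESeq2 (which gave the others no adjusted p), 10 at 0.01 and 2 to 20 without single libraries. The cause was not tested. THS_05421, not called, changed sign to -0.20 under scaling by listed reads, -0.12 under cyclic loess, -0.65 with reads in peaks, -0.22, -0.12 and -0.07 without Proto replicate 2, Proto replicate 3 and GC replicate 3 (range without single libraries -0.22 to 0.42) and -0.037 with edgeR. Of 719 checks of single THSs, which leave out those without an adjusted p, 549 kept direction and side of the threshold, 162 lost the call, 1 gained it and 7 changed sign.

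Same-numbered deviations of Proto and GC correlated at -0.03, -0.07 and 0.23, and differently numbered ones from -0.29 to 0.29. Proto replicate 3 and GC replicate 3 had the highest correlation of any library pair, r = 0.959. With 3 libraries per state these values cannot settle whether replicate numbers pair the samples. The block changed no call of the named THSs but raised the counts of calls. With edgeR 60 of the 74 and 25 of the 28 were also called. In the central 150 bp in place of whole THSs, the shares of THSs higher in GC and in Proto fell to 47.3% and 57.1% for the E-box, 18.9% and 39.3% for TAAAG and, in Proto, 25% for AATNATT.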

Other observations

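The GC1 and ATML1 promoter THSs can be set beside the 3 states between, MMC, M and GMC, the meristemoid mother cell, meristemoid and guard mother cell. At THS_45044 Proto had a median over libraries of 1470 and GC of 367, while MMC had 490, M 525 and GMC 274. Each of the other states was below Proto, and M ranged from 302 to 871 over its 4 libraries. At THS_05424 the medians were 80.8, 94.0 and 112, against 82.8 in Proto and 354 in GC.

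The RANGAP1 exon THS_40397 did not order the states by the lineage. Proto had the lowest median, 181, GMC the highest, 709, and MMC (614), M (384) and GC (354) lay between, with MMC libraries from 303 to 869.

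The ribosomal DNA and the 28 THSs higher in Proto were also set beside the states between. The median over the 12 ribosomal DNA THSs lay from 7028 to 8028 scaled cutcounts in the Proto libraries and 17052 to 22057 in those of GC. MMC ranged from 4438 to 19702, M from 6237 to 23126 and GMC from 21469 to 22646. For the 28 THSs it lay from 186 to 206 in Proto and 101 to 121 in GC. MMC ranged from 159 to 225, M from 111 to 215 and GMC from 99.7 to 117. These sets were chosen on Proto and GC, so their opposite directions between these states are no result, and no test was made.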
